A study of Danio rerio with 6 samples.

Results

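The 3 libraries of GFP-positive cardiomyocytes, sorted from atrioventricular canal tissue of adult zebrafish hearts, were described across all 25281 genes of their count tables. They were chosen by title, as the libraries named CM, GFP+ with replicate numbers 1, 2 and 3, and are 3 of the 6 libraries of the series. The other 3 libraries are GFP-negative cardiomyocytes of the same preparation and are used here to show how far libraries of a like sort spread. All fish were 4 to 8 months old and carried 3 transgenes, so no library comes from fish without them. In Tg(myl7:GAL4db-TCFΔC-2A-mCherry) the cardiomyocyte promoter of myl7 drives mCherry and a GAL4 DNA-binding domain joined to a shortened TCF. Through the second transgene, Tg(UAS:EGFP), the GAL4 fusion then reports β-catenin activity as EGFP. The remaining transgene, Tg(myl7:NLS-mCherry), also labels cardiomyocytes. Collagenase (3 mg/ml, 30 min, 28.5 °C) freed the cells, and live cells were sorted. The label of the sorted fraction is mCherry+ EGFP+ (β-cat ON) for the GFP-positive libraries. For the GFP-negative libraries (β-cat OFF) it is mCherry- EGFP+, which conflicts with their titles, and the titles were followed. The labels do not say how many fish or cells went into a library, or whether replicates came from separate fish, so the spread between libraries may be technical in part.

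The atrioventricular canal is the ring of muscle and valve tissue between atrium and ventricle. Its cardiomyocytes conduct slowly, which delays the ventricular beat, and they make signals such as Bmp4 that act on the neighbouring endocardium where valves form. Like all heart muscle, they are packed with mitochondria and with sarcomeres, the contractile units built from actin, myosin, troponin and tropomyosin. SMART-Seq v4, used for these libraries, copies and amplifies cDNA from small amounts of RNA without molecular identifiers, so counting intervals cover counting error only.

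GFP-positive replicates 1, 2 and 3 had 14783352, 15934231 and 15583204 counts, against 16275969 to 19750914 in the GFP-negative libraries. Mitochondrially encoded genes (mt- genes) took 44.9%, 40.4% and 35.6% of the counts in the GFP-positive libraries, against 11.9% to 15.7% in the GFP-negative ones. GFP-positive replicate 3 stood apart from the other 2 GFP-positive libraries at low levels. It had 9616 genes at 1 or more CPM (counts per 1000000 counts, scaled by TMM, a factor that corrects for library composition), against 11682 and 12121 in replicates 1 and 2. At 10 CPM or more it had 6069, against 5814 and 5861 in replicates 1 and 2. Replicate 3 had the most genes with any count, 18203 against 16642 and 16734 in replicates 1 and 2. It had the fewest with 10 or more counts, 10093 against 12031 and 12834. Over all genes, the numbers of steady genes, on/off genes and genes at 1 CPM are given with and without replicate 3. Counts by gene class rest on all 3 libraries.

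The most counted nuclear genes were the same in every GFP-positive library: the same 10 genes filled the top 10, 17 genes were in all 3 top 20 lists, and 79 were in all 3 top 100 lists. The lists rank genes by counts within a library outside mt- genes. Counts were not divided by transcript length, so a rank here is of counts and not of molecules. At the head stood gapdh (ENSDARG00000043457), a glycolytic enzyme, with 5.77%, 5.89% and 4.85% of the nuclear counts in replicates 1, 2 and 3. Second in every library was myl7 (ENSDARG00000019096), the cardiac myosin light chain whose promoter drives the reporter, with 2.49%, 2.06% and 2.36%. The shares of both genes stayed close between libraries, with gapdh lowest in replicate 3 and myl7 lowest in replicate 2.

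Sarcomere genes filled 6 of the first 20 places. The cardiac actin gene listed as actc1a_2 had 11260, 9560 and 10557 CPM, and a close copy listed as actc1a_1, whose identifier the gene name table pairs with the symbol actc1c, had 10593, 5745 and 8304 CPM. The authors' counting could have split reads between these copies, so their separate values are uncertain. The myosin light chain cmlc1 had 9246, 6867 and 7080 CPM, the troponin I gene tnni1b 6238, 5851 and 8233 CPM, and the tropomyosin gene tpm4a 5753, 4333 and 5211 CPM. Replicate 2 was lowest for each of these genes. Energy supply gave 5 more places. They are slc25a5, the ADP/ATP carrier of the inner mitochondrial membrane (8377, 7341 and 7653 CPM), the muscle creatine kinase ckma (4237, 3395 and 3665 CPM), the ATP synthase subunit atp5f1b (3511, 2834 and 3434 CPM), the muscle complex IV subunit cox6a2 (2391, 2337 and 2825 CPM) and gapdh. The calcium pump of the sarcoplasmic reticulum, atp2a2a, had 4081, 2506 and 3484 CPM, and nppa, the natriuretic peptide of heart muscle, had 3800, 3087 and 3067 CPM.

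Genes of the rapid transcriptional response also stood among the first 20. The transcription factor gene fosab had 10305, 9742 and 11693 CPM, and ranked 5, 3 and 3 in those replicates. Its AP-1 partner junbb had 3487, 3969 and 4322 CPM, the AP-1 related factor jdp2b 2732, 2989 and 3286 CPM, and the antiproliferative gene btg2 2544, 2701 and 2654 CPM. The remaining genes were pnrc2, an mRNA decay and nuclear receptor cofactor, ybx1, an RNA-binding protein, and actb2, a cytoplasmic actin. Levels of pnrc2 were 6127, 5855 and 6070 CPM and those of ybx1 were 2304, 2215 and 2379 CPM, while actb2 spread more widely, with 2276, 3030 and 1664 CPM. The ratio of the highest to the lowest library was 1.05 for pnrc2, 1.07 for ybx1 and 1.82 for actb2.

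**Figure D1:**
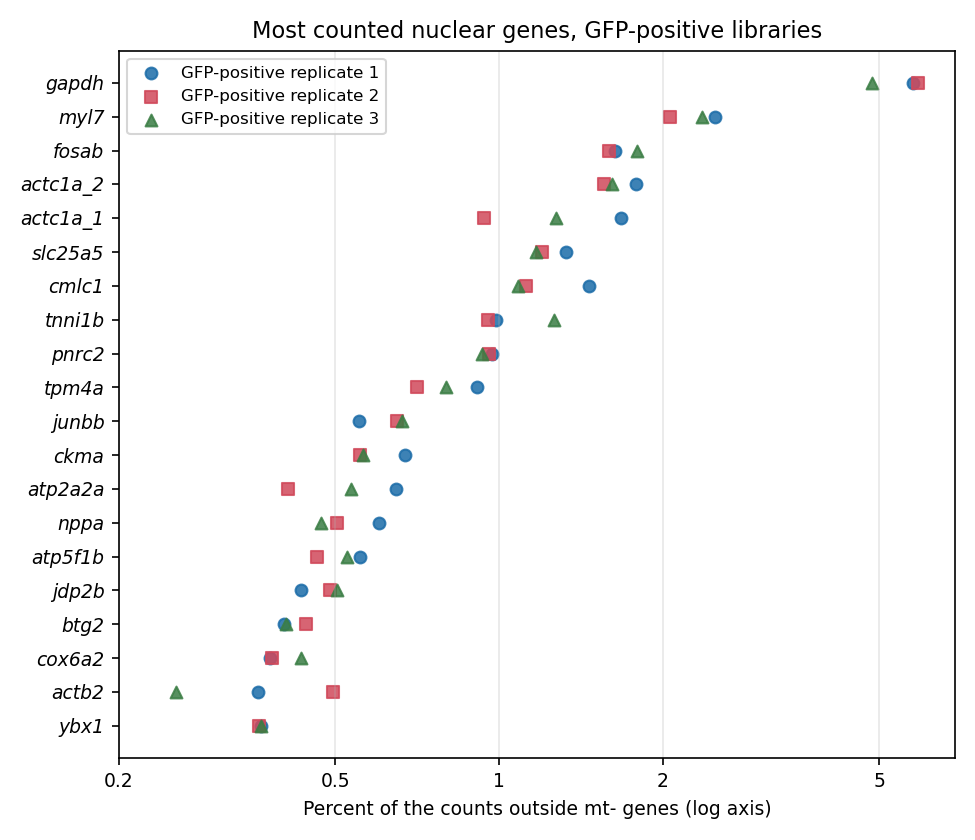
Share of the counts outside mt- genes (percent, log axis) of the 20 most counted nuclear genes in GFP-positive replicates 1, 2 and 3, each a point. gapdh lies near 5% and myl7 near 2% in all 3 libraries, and actc1a_1 and actb2 are spread more widely than the genes beside them.

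The 100 most counted nuclear genes took 40.4%, 37.8% and 38.4% of the nuclear counts in the GFP-positive libraries, against 52.9%, 46.4% and 48.5% in the GFP-negative ones. Means were 38.9 ± 1.39% in GFP-positive and 49.3 ± 3.33% in GFP-negative libraries (SD, n = 3 each), and the groups did not overlap. Counting down from the top, 50% of the nuclear counts came from 204, 236 and 235 genes in the GFP-positive libraries and from 79, 134 and 112 in the GFP-negative ones. At an equal depth of 8148380 nuclear counts, 16629, 16467 and 17481 genes were expected with a count in the GFP-positive libraries, against 17487, 18710 and 18013 in the GFP-negative ones. The means were 16859 ± 545 in GFP-positive and 18070 ± 613.6 in GFP-negative libraries (SD, n = 3 each). Both differences had p = 0.1 in two-sided exact permutation tests, and adjusted p = 0.1 over 3 such tests, which is the smallest value that 3 libraries against 3 can give. Neither passed 0.05.

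Genes at a steady level were sought among the 5023 genes with 100 or more counts in each GFP-positive library. A gene was called steady when its highest library was at most 25% above its lowest, and 704 genes (14.0%) were. In the GFP-negative libraries 2381 of 6590 genes (36.1%) were steady by the same rule. With only 2 libraries to agree, more genes pass: 1896 GFP-positive genes did without replicate 1, 1942 without replicate 2 and 2385 without replicate 3. The 12 named genes with the smallest ratios and at least 100 CPM were mostly of the mitochondrion. Among them were 4 subunits of complex I, the first enzyme of the respiratory chain. ndufc2 had 151, 151 and 152 CPM, ndufs7 461, 456 and 453 CPM, ndufb10 343, 344 and 338 CPM, and ndufs3 351, 354 and 345 CPM. The 3 libraries lay within a few percent of each other, and each of these genes had 1952 or more counts per library. The ATP synthase subunit atp5meb had 588, 592 and 589 CPM, the complex II subunit sdhdb 173, 171 and 168 CPM, and the complex IV subunit cox7b 901, 894 and 875 CPM. Also in this set were the glycolytic enzyme aldoab (1496, 1470 and 1498 CPM), the mitochondrial enzymes hibadhb (145, 145 and 148 CPM) and got2a (751, 734 and 745 CPM), the ribosomal protein gene rpl7a (374, 382 and 373 CPM) and the translation factor subunit eif3g (102, 103 and 100 CPM). They were picked for small ratios, so those ratios are a description only.

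Gene classes differed in how many members were steady. Of nuclear genes for the respiratory chain and ATP synthase, including their assembly factors, 57 of 97 (58.8%) were steady, with a median ratio of 1.21. The same class had 27 of 98 steady members (27.6%) in the GFP-negative libraries, below the 36.1% of all genes there. Of cytosolic ribosomal protein genes 39 of 83 (47.0%) were steady, with 28 to 44 over the 4 other scalings of the libraries. Of mitochondrial ribosomal protein genes 17 of 69 (24.6%) were steady, of TCA cycle genes 7 of 21, of fatty acid oxidation genes 7 of 23 and of glycolytic genes 5 of 26. These classes are read beside their level. Of all nuclear genes, 54.4% at 1000 CPM or more were steady, 31.8% at 300 to 1000 CPM and 26.5% at 100 to 300 CPM. At 30 to 100 CPM 13.25% were steady, and at 10 to 30 CPM 5.11%. The median level was 271 CPM for the respiratory chain class, 150 CPM for the cytosolic ribosomal class and 32.9 CPM for all genes with 100 counts. It was 34.9 CPM for mitochondrial ribosomal, 235 CPM for TCA cycle, 203 CPM for fatty acid oxidation and 370 CPM for glycolytic genes. The 13 mitochondrially encoded subunits of the same respiratory complexes held no steady gene, and 11 of them were lowest in replicate 3. An example is mt-co2, a complex IV subunit, with 117120, 97243 and 76790 CPM. With plain CPM of all counts, 6 of the 13 were steady.

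Among lists with 10 or more genes measured, immediate early genes, which cells switch on within minutes of a stimulus, had the largest share of steady genes. They had 15 of 25 (60.0%) and a median highest to lowest ratio of 1.204, at a median level of 446 CPM. In the GFP-negative libraries 4 of 25 were steady. Steady members were fosb (422, 401 and 403 CPM), jun (1727, 1935 and 1939 CPM), egr1 (636, 559 and 599 CPM) and socs3a (1181, 1219 and 1388 CPM), an inhibitor of cytokine signalling. Members that spread were the flow-responsive factors klf2a (91.7, 293 and 218 CPM) and klf2b (57.8, 135 and 223 CPM) and the nuclear receptor nr4a3 (370, 186 and 100 CPM). The count depends on the scaling, since 7 of 25 were steady with plain CPM of all counts and 13 or 14 with the others. With plain CPM the list no longer had the largest share, since cardiomyocyte markers had 6 of 12 and the respiratory chain class 46 of 97. No member was present in 1 library and absent from another.

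**Figure D2:**
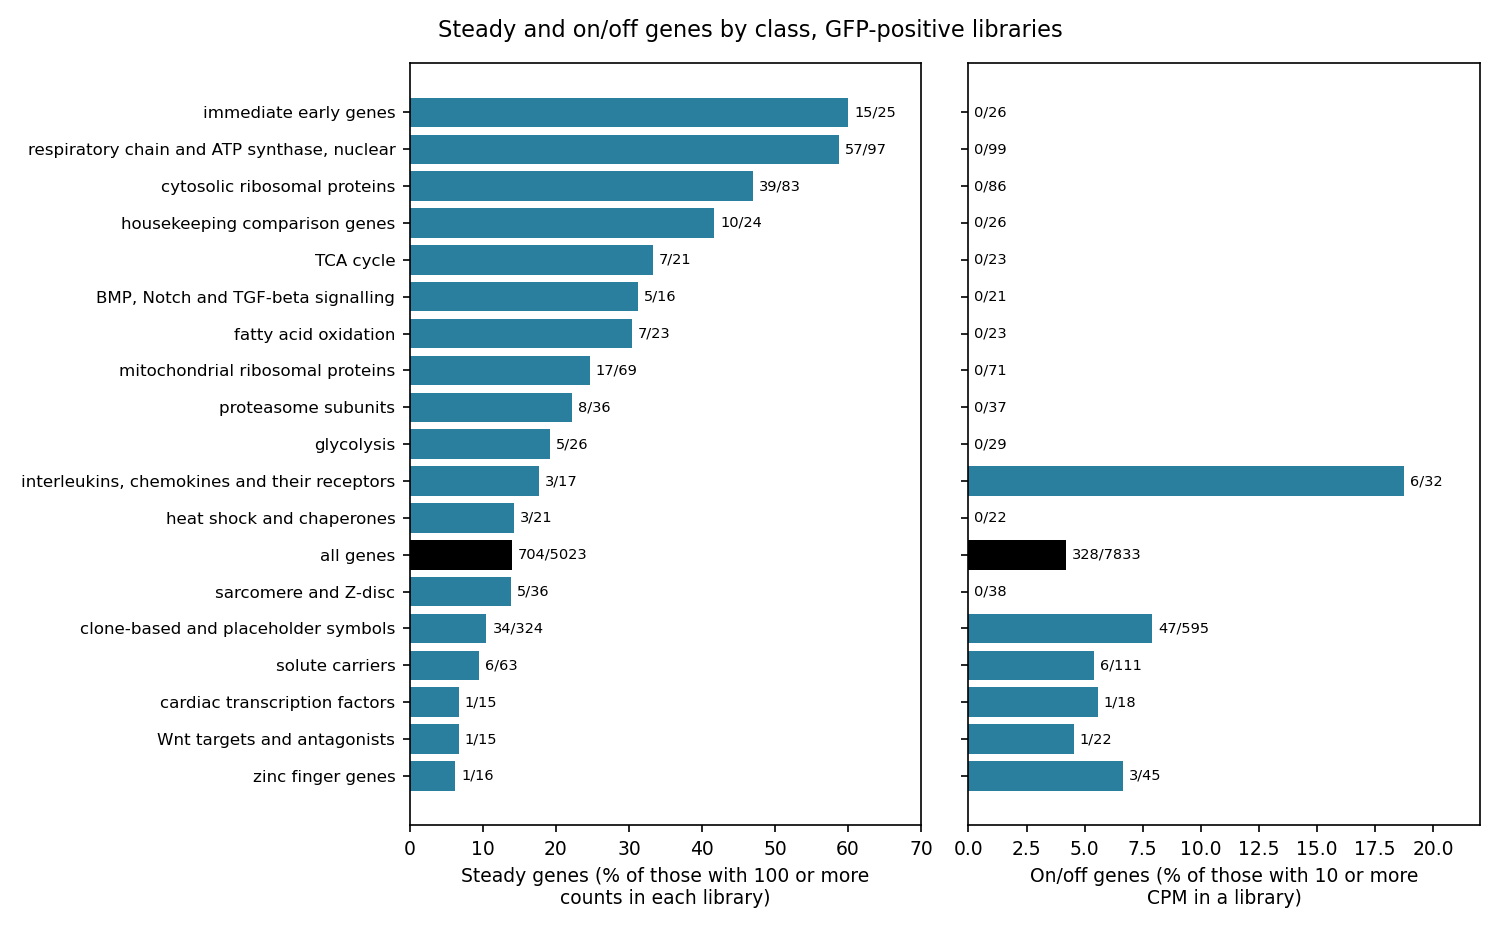
Left, percent of the genes with 100 or more counts in each GFP-positive library that were steady, by gene list or class. Right, percent of the genes with 10 or more CPM in a GFP-positive library that had 0 counts in another, with the counts beside each bar and all genes in black. Of the classes drawn, which leave out cell type markers, immediate early and respiratory chain genes have the longest bars on the left, 60.0% and 58.8%, and interleukin and chemokine genes on the right, 18.8%.

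Sarcomere genes were high in all 3 libraries but not steady as a list. Of 36 sarcomere and Z-disc genes with enough counts 5 (13.9%) were steady, against 14.0% of all genes, most of which have lower levels. The median level of the list was 468 CPM, and of all nuclear genes at 300 to 1000 CPM 31.8% were steady. The 5 steady members were myl7, actc1a_2, tcap, a Z-disc protein, and the troponin genes tnnt2a (1680, 1544 and 1756 CPM) and tnnc1a (2456, 2044 and 2133 CPM). Replicate 2 was the lowest library for 30 of the 38 members that reached 10 CPM in a library, against 2648 of 7833 among all genes, and for 24 to 32 of the members over the other scalings. The titin gene ttn.2, a molecular spring of the sarcomere, had 706, 341 and 670 CPM. The myosin heavy chain myh6 had 1812, 1004 and 1489 CPM, and xirp1, an actin-binding protein of cell junctions, had 599, 277 and 368 CPM. The calcium handling and ion channel list was lowest in replicate 2 for 13 of 15 members (12 to 14 over the other scalings), among them the ryanodine receptor ryr2b (135, 100.6 and 259 CPM) and the potassium channel kcnh6a (123, 42.6 and 106 CPM). The summed level of the cardiomyocyte markers was 65948, 50395 and 62088 CPM. In the library where these were lowest, replicate 2, the summed macrophage markers (206, 779 and 163 CPM), endocardial markers (354, 600 and 489 CPM) and valve and fibroblast markers (651, 921 and 905 CPM) were highest. So were the sums of epicardial, neutrophil, lymphocyte, thrombocyte, and Schwann cell and neuron markers, but some of these were narrow. Most of the Schwann cell and neuron sum (106, 213 and 110 CPM) was snap25a (90.6, 209 and 98.9 CPM). Which cells the snap25a counts came from was not tested. Lymphocyte sums were low, and close in replicates 1 and 2 (6.67, 6.83 and 0.390 CPM). Of 6 epicardial markers at 10 CPM or more in a library, 3 were highest in replicate 1 and 3 in replicate 2. Of 10 endocardial markers, 5 were highest in replicate 2 and 3 were lowest there. Much of the endocardial sum in replicate 2 was klf2a (91.7, 293 and 218 CPM). The valve and fibroblast sums of replicates 2 and 3 were close. Erythrocyte markers (2986, 2772 and 3967 CPM) and smooth muscle and pericyte markers (962, 553 and 664 CPM) were lowest in replicate 2 instead. The smooth muscle and pericyte sum was narrow too. Most of it was acta2 (921, 530 and 645 CPM), and only 2 members reached 10 CPM in a library. Among the GFP-negative libraries replicate 2 was also lowest for summed cardiomyocyte markers (127890, 104020 and 120100 CPM). The same held for sarcomere genes (152210, 122800 and 144250 CPM). GFP-negative replicate 2 was highest for endocardial (98.4, 177 and 142 CPM) and valve and fibroblast markers (127, 300 and 217 CPM). It was not highest for neutrophil or Schwann cell and neuron markers. The part of these cell types in the result was not tested.

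Of 24 genes known from the canal and the conduction system, 9 reached 1 CPM in all 3 GFP-positive libraries, 5 in some and 10 in none. The split over all 25281 genes was not far from this, with 8059 in all 3, 6196 in some and 11026 in none. The canal transcription factor tbx2b had 86.4, 62.3 and 66.5 CPM, the growth factor bmp4 15.6, 11.2 and 17.9 CPM, and has2, the hyaluronan synthase of cardiac jelly, 21.2, 11.3 and 18.6 CPM. The Wnt inhibitor wif1 had 272, 201 and 212 CPM and axin2, a feedback inhibitor and target of β-catenin, 31.6, 21.5 and 31.4 CPM. Each of these genes was counted in every GFP-positive library, with a highest to lowest ratio of 1.35 for wif1 up to 1.88 for has2. By contrast, tbx3a had 0, 0 and 3 counts and the pacemaker channel hcn4 had 2, 0 and 0 counts, at or under the floor of 3 counts in each library. Other members were uneven, such as tbx2a with 59, 0 and 2 counts, shox2, a pacemaker transcription factor, with 46, 1 and 1 counts, and bmp2b with 0, 0 and 16 counts. The heart factor gata4 had 3.26, 0.0644 and 0.0651 CPM, that is 42, 1 and 1 counts, while the related gata5 was steady at 141, 143 and 165 CPM. Further heart transcription factors were nkx2.5 (159, 187 and 232 CPM), hand2 (186, 185 and 284 CPM), tbx5a (128, 97.8 and 114 CPM) and tbx20 (20.9, 9.28 and 17.0 CPM).

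Some members of the signalling and transcription factor lists differed widely between replicates. The Wnt antagonist dkk1b had 0, 1.55 and 15.8 CPM, and nr2f2, a transcription factor of atrial and venous identity, had 0, 5.99 and 34.7 CPM. The Wnt ligand wnt11 had 7.68, 7.79 and 54.4 CPM, the feedback inhibitor nkd1 3.80, 7.99 and 37.2 CPM, and the Notch receptor notch1a 0.931, 3.99 and 24.6 CPM. Replicate 3 was highest for each of these 5 genes, some of which were picked after their values were seen. Of all 7833 genes at 10 CPM or more in a library, 3413 were highest in replicate 3. By list these numbers were 13 of 22 (Wnt), 9 of 18 (cardiac transcription factors) and 7 of 21 (BMP, Notch and TGF-beta). The transcription factor lef1, a partner and target of β-catenin, went the other way in that library, with 6.44, 18.5 and 0.716 CPM. In the BMP, Notch and TGF-beta list 5 of 16 genes were steady, against 14.0% of all genes, at a median level of 56.2 CPM. The count depends on the scaling. It was 2 of 16 with plain CPM of all counts, where 12.3% of all genes were steady, and 4 of 16 with each of the others. Among the 5 were the BMP pathway genes smad9 (99.2, 112 and 107 CPM) and smad6b (99.95, 88.4 and 110 CPM).

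The spread between the GFP-positive replicates was wider in each lower bin of mean level, which was not so for the GFP-negative ones above 30 CPM. At 1000 CPM or more the median ratio of highest to lowest library was 1.24 in the GFP-positive and 1.37 in the GFP-negative libraries. At 100 to 300 CPM it was 1.42 in the GFP-positive and 1.30 in the GFP-negative libraries. At 10 to 30 CPM it was 2.44 in the GFP-positive against 1.34 in the GFP-negative libraries. The median coefficient of variation at 10 to 30 CPM was 44.5% in the GFP-positive and 15.3% in the GFP-negative libraries, where counting error alone gives 6.38% in the GFP-positive and 5.67% in the GFP-negative ones. The GFP-positive median was the higher one in every bin below 300 CPM, the groups were close at 300 to 1000 CPM (1.36 in the GFP-positive and 1.35 in the GFP-negative libraries), and the GFP-negative median was the higher one at 1000 CPM or more. A ratio over 2 libraries is lower by construction, and the median at 10 to 30 CPM was 1.82, 1.80 and 1.52 without GFP-positive replicate 1, 2 and 3 in turn. Of the genes that reached 1 CPM in any library, 8059 of 14255 (56.5%) did so in all 3 GFP-positive libraries, against 11196 of 13218 (84.7%) in the GFP-negative ones. With GFP-positive replicate 3 left out, 10121 of 13682 genes (74.0%) reached it in both remaining libraries, and with replicate 1 or 2 left out 65.7% and 66.2% did. Each pair of GFP-negative libraries gave 88.4% to 90.4%.

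**Figure D3:**
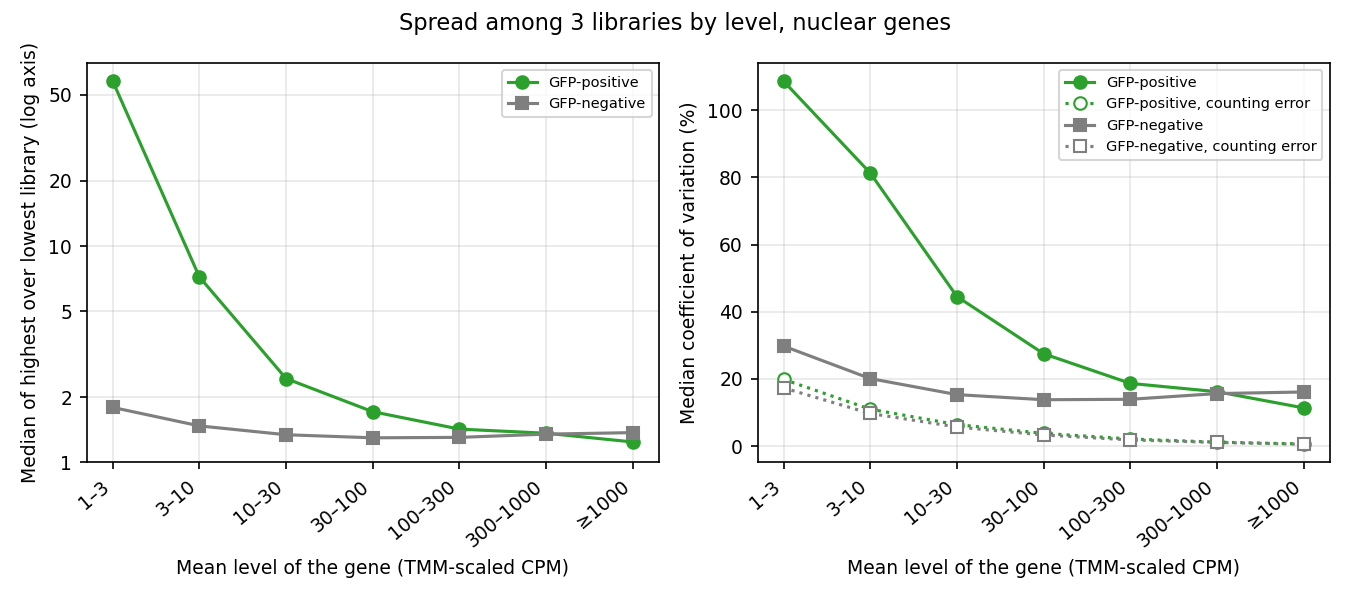
Left, median over nuclear genes of the highest over the lowest library (log axis) by mean level in TMM-scaled CPM, for the 3 GFP-positive and the 3 GFP-negative libraries. Right, the median coefficient of variation in percent, with the part that counting error alone gives as open symbols. The groups meet at 300 to 1000 CPM, the GFP-negative medians are the higher ones at 1000 CPM or more, and the GFP-positive medians stand at 2.44 and 44.5% at 10 to 30 CPM.

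Some genes were present in 1 GFP-positive library and absent from another. A gene was called on/off when it had 10 or more CPM in at least 1 library and 0 counts in another. Of 7833 GFP-positive genes that reached 10 CPM in a library, 328 (4.19%) were on/off. By the same rule 1 of 6210 genes (0.0161%) was on/off in the GFP-negative libraries. The on/off genes were of low level, with a median highest value of 13.4 CPM and a maximum of 99.1 CPM. A count of 0 allows up to 0.233, 0.193 and 0.195 CPM in GFP-positive replicates 1, 2 and 3, taking 3 counts as the limit. Of the 328 genes, 309 (94.2%) were counted in all 3 GFP-negative libraries, with a median of 4.74 CPM there over all 328. Replicate 3 lacked 154 of them, replicate 1 lacked 141 and replicate 2 lacked 72. Without replicate 3, 73 genes were on/off between replicates 1 and 2, without replicate 1, 166 were, and without replicate 2, 169 were.

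The number of genes missing from a library was also counted without regard to group. A gene was missing when it had 0 counts in a library and at least 10 CPM on average over the other 5. GFP-positive replicates 1, 2 and 3 lacked 23, 6 and 62 such genes, against 1, 0 and 0 in the GFP-negative libraries. The means were 30.3 ± 28.7 in GFP-positive and 0.333 ± 0.577 in GFP-negative libraries (SD, n = 3 each). The groups did not overlap, and the two-sided exact permutation test gave p = 0.1 and adjusted p = 0.1, again the smallest possible. Without GFP-positive replicate 3 the difference was 14.2 genes in place of 30.0. The share of mt- genes also set the groups apart. The number of genes at equal depth did so only barely, with 17481 in GFP-positive replicate 3 and 17487 in GFP-negative replicate 1. The part of these 2 values in the result was not tested.

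On/off genes that were at 0 in replicate 3 alone included genes with many counts elsewhere. faf1, a ubiquitin-binding protein, had 473, 477 and 0 counts, that is 36.68, 30.7 and 0 CPM, against 29.1 to 38.8 CPM in the GFP-negative libraries. The cochaperone gene dnajc18 had 42.6, 25.4 and 0 CPM, bambia, a decoy receptor that dampens BMP and activin signals, 29.6, 25.7 and 0 CPM, and coro1a, an actin regulator of leukocytes, 29.6, 69.5 and 0 CPM. Each was present in both other GFP-positive libraries and was counted in all GFP-negative ones, where bambia was lowest with 5.56, 11.8 and 6.23 CPM. At 0 in replicate 1 alone were ddx56, an RNA helicase (0, 23.3 and 39.2 CPM), lect2l, a zebrafish neutrophil gene (0, 27.4 and 57.9 CPM), adgrg3, an adhesion receptor known from human granulocytes (0, 33.3 and 23.2 CPM), and the clock repressor ciarta (0, 34.3 and 38.7 CPM). The kinase gene csnk1g1 (16.4, 0 and 18.03 CPM) and myoc, a secreted glycoprotein (10.2, 0 and 10.9 CPM), were the only genes at 0 in replicate 2 and present in both others.

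Genes present in a single replicate, with 0 counts in both others, were fewer. Replicate 1 had 2 such genes, the cohesin acetyltransferase gene esco2 (12.3 CPM) and the desmin copy desmb (10.9 CPM). Replicate 2 had 18, among them stx11a, a syntaxin of immune cells (24.9 CPM), the protease inhibitor spink2.5 (18.6 CPM), fkbp10b, a collagen chaperone (16.7 CPM), and the interferon-induced mxb (16.1 CPM). Replicate 3 had 19, among them the adhesion receptor flrt1b (19.8 CPM), the immune-type receptor nitr1b_3 (19.1 CPM), the DNA primase subunit prim2 (18.03 CPM) and ccdc142 (14.4 CPM). nitr1b_3 belongs to a family of close copies and its counts are uncertain. In the GFP-negative libraries flrt1b had at most 0.0501 CPM, and prim2 had 2.21 to 3.58 CPM in all 3. In the largest set, 248 genes, 1 library was present, another was at 0 and the last lay between.

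On/off genes by class are also read beside level. The share of nuclear genes with 0 counts in a GFP-positive library was 14.0% at a mean of 3 to 10 CPM. It was 1.33% at 10 to 30 CPM and 0.113% at 30 to 100 CPM, and no gene at 100 CPM or more had 0 counts. No on/off gene was found among 99 respiratory chain genes, 86 cytosolic and 71 mitochondrial ribosomal protein genes, 38 sarcomere genes, 37 proteasome genes or 29 glycolytic genes that reached 10 CPM in a library. Median levels of members with 100 counts in each library were 271, 150, 34.9, 468, 66.5 and 370 CPM in that order. For interleukins, chemokines and their receptors the median was 38.8 CPM, but only 17 genes had 100 counts in each library, against 32 at 10 CPM in a library. For mitochondrial ribosomal protein genes these numbers were 69 and 71. Every on/off gene is left out of such a median, so it does not match the classes in level. Interleukins, chemokines and their receptors had 6 of 32 (18.8%), against 4.19% of all genes. The 6 were named after their values were seen. ccl34a.4 had 0, 36.0 and 5.40 CPM, ccl36.1 6.36, 30.0 and 0 CPM, cxcl32b.1 7.44, 14.8 and 0 CPM, cxcl11.1 0.0775, 13.9 and 0 CPM, ccl34b.4 6.28, 11.3 and 0 CPM, and the interleukin receptor gene il21r.1 0, 6.31 and 10.02 CPM. The 5 chemokine genes among them were highest in replicate 2. This count rests largely on replicate 3. There ccl36.1, cxcl32b.1, cxcl11.1 and ccl34b.4 had their 0, and only there did il21r.1 reach 10 CPM. Between replicates 1 and 2 only ccl34a.4 was on/off. Genes with clone-based placeholder symbols had 47 of 595 (7.90%), zinc finger genes 3 of 45 (6.67%) and solute carriers 6 of 111 (5.41%). No test of a class was made.

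Macrophage markers set GFP-positive replicate 2 apart. Their summed level was 206, 779 and 163 CPM in GFP-positive replicates 1, 2 and 3, against 229, 708 and 201 CPM in GFP-negative replicates 1, 2 and 3. All 8 markers at 10 CPM or more in a GFP-positive library were highest in replicate 2, by margins that differed widely. The perforin-like gene mpeg1.1 had 58.4, 68.7 and 14.4 CPM in the GFP-positive libraries and 44.1, 68.4 and 21.7 CPM in the GFP-negative ones, with replicates 1 and 2 close to each other in the GFP-positive libraries. The MHC class II chaperone cd74a had 139.5, 444 and 102 CPM in the GFP-positive libraries and 143, 387 and 118 CPM in the GFP-negative ones. The complement genes c1qb and c1qc had 1.78, 67.4 and 23.2 CPM and 1.71, 68.9 and 11.4 CPM in the GFP-positive libraries. In the GFP-negative libraries c1qb had 12.6, 72.5 and 19.5 CPM and c1qc 14.3, 63.1 and 15.3 CPM. The same replicate number was thus highest in both sorted groups. On/off markers were mfap4, a macrophage gene of zebrafish (0.465, 45.6 and 0 CPM in the GFP-positive libraries, against 1.66, 42.0 and 8.67 CPM in the GFP-negative ones), and the myeloid transcription factor spi1b (0, 19.5 and 0.781 CPM in the GFP-positive libraries, against 3.78, 17.95 and 6.23 CPM in the GFP-negative ones). The receptor csf1ra was near the floor at 0.0775, 1.42 and 0.0651 CPM. In bulk libraries a difference in the number of such cells and in the RNA per cell cannot be told apart.

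Leaving aside genes with clone-based symbols, 4 genes at 100 CPM or more in replicate 2 stood farthest above both other libraries, and 3 of them are known from immune cells. The 4 were grn1, a progranulin gene (24.1, 612.3 and 152 CPM in the GFP-positive libraries, against 47.6, 526 and 81.6 CPM in the GFP-negative ones), cd74a, cd74b (67.9, 225 and 66.2 CPM in the GFP-positive libraries, against 65.3, 133 and 46.3 CPM in the GFP-negative ones) and the purine nucleoside phosphorylase gene pnp5a. Neutrophil genes were low in replicate 1, with summed levels of 2.48, 189 and 66.0 CPM in the GFP-positive libraries, against 28.6, 55.3 and 73.0 CPM in the GFP-negative ones. Most of the sum came from the matrix proteases mmp9 (0, 99.1 and 16.5 CPM) and mmp13a_2 (2.17, 56.4 and 29.5 CPM), which other cells also make. The defining neutrophil gene lyz had 0 counts in all 3 GFP-positive libraries, and mpx had 0.0775, 3.61 and 4.42 CPM. In a granulocyte list added after the data were seen, 6 of 12 genes were on/off, against 4.19% of all genes, and all 6 were at 0 in replicate 1. The list was drawn up with such genes in view, among them lect2l, adgrg3 and mmp9, so its count is a description of that choice. One of them was ncf1, a subunit of the phagocyte oxidase (0, 28.6 and 17.9 CPM). Lymphocyte markers stayed low, with sums of 6.67, 6.83 and 0.390 CPM.

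**Figure D4:**
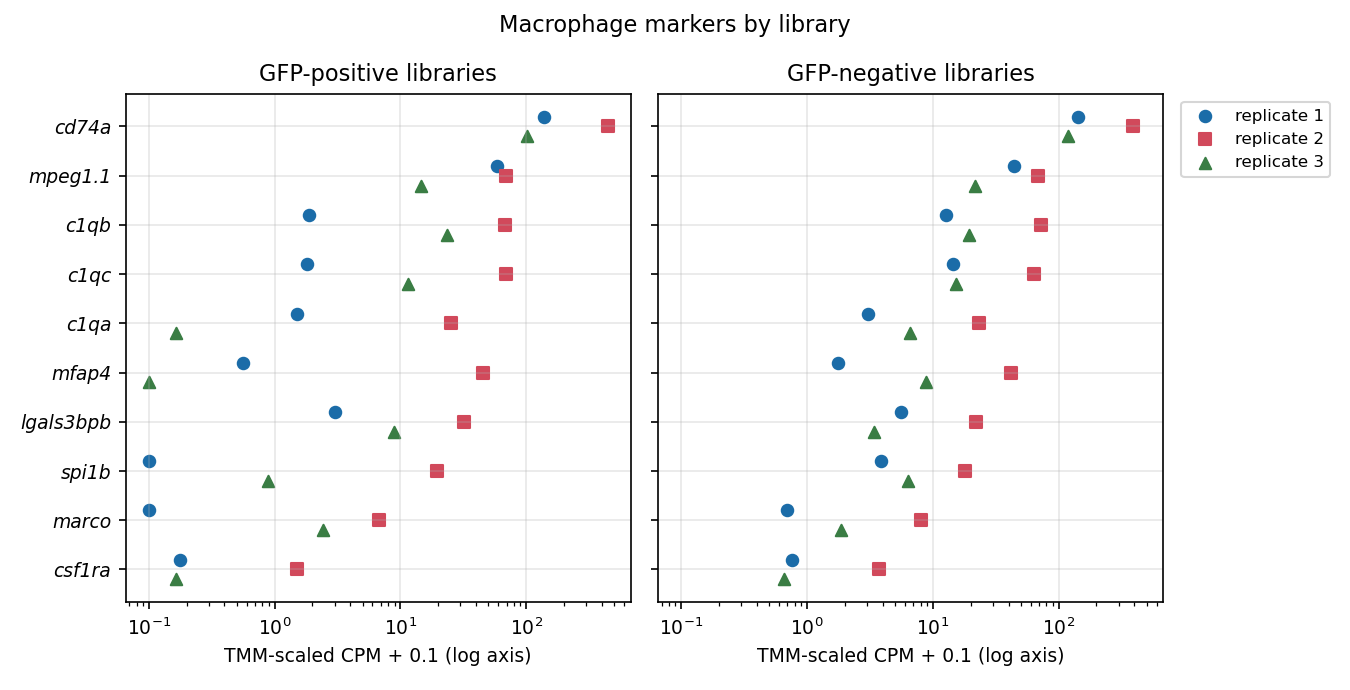
Levels of 10 macrophage markers (TMM-scaled CPM plus 0.1, log axis) in the 3 GFP-positive libraries, left, and the 3 GFP-negative libraries, right, with 1 symbol per replicate number. Replicate 2 is the highest library for all 10 genes in both groups, and mfap4, spi1b and marco reach 0 counts in a GFP-positive library.

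Marker sets of other cells of the canal had counts in all 3 GFP-positive libraries, though not every marker did. Endocardial and endothelial markers summed to 354, 600 and 489 CPM, valve and fibroblast markers to 651, 921 and 905 CPM, and epicardial markers to 1130, 1208 and 756 CPM. Much of the epicardial sum came from the keratin genes krt8 (492, 581.5 and 455 CPM) and krt4 (288, 275 and 111 CPM). Another epicardial marker, wt1b, had 32, 24 and 0 counts. The haemoglobin and other erythrocyte genes summed to 2986, 2772 and 3967 CPM and were highest in replicate 3 for all 8 members at 10 CPM or more. All 10 endocardial genes were counted in every library, for example egfl7 (84.8, 108 and 67.7 CPM) and the VE-cadherin gene cdh5 (55.8, 29.8 and 69.6 CPM). The fibroblast gene col1a1b, a collagen chain, had 261, 300 and 331 CPM. The valve marker angptl7 was on/off, with 0, 12.3 and 7.94 CPM, and so was mbpa, a myelin protein gene, with 10.4, 0 and 0.0651 CPM. In the Schwann cell and neuron list elavl3, sox10, gap43 and th were at or under 4 counts in each library. The neuronal RNA-binding gene elavl4 had 3.80, 3.74 and 10.8 CPM, and snap25a, a synaptic vesicle fusion protein, had 90.6, 209 and 98.9 CPM. snap25a is also in the canal and conduction list, where it had the highest mean level. Being in both lists does not show which cells its counts came from, and this was not tested. The part of these cells in the spread was not tested.

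Circadian clock genes, a list added after the data were seen, differed between replicates along like lines in both sorted groups. The clock is a transcriptional loop in which Clock and Arntl proteins drive period, cryptochrome and nr1d genes, whose products repress it in turn. The repressor nr1d1 (ENSDARG00000033160) had 61.5, 369 and 545 CPM in GFP-positive replicates 1, 2 and 3, against 66.2, 393 and 471 CPM in GFP-negative replicates 1, 2 and 3. The bZIP factor nfil3-5 ran the other way, with 334, 40.7 and 10.5 CPM in the GFP-positive libraries and 247, 35.3 and 4.20 CPM in the GFP-negative ones. The activator arntl1a had 50.6, 22.5 and 0 CPM in the GFP-positive libraries and 45.8, 16.2 and 6.37 CPM in the GFP-negative ones. The nuclear receptor rorcb had 18.5, 3.03 and 0.521 CPM in the GFP-positive libraries and 19.7, 1.81 and 0.138 CPM in the GFP-negative ones. Replicate 1 was highest for these 3 genes and lowest for nr1d1 in both groups.

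Cryptochromes moved in opposite ways. cry1b had 29.5, 2.90 and 0.0651 CPM in the GFP-positive libraries and 39.5, 4.76 and 2.49 CPM in the GFP-negative ones. cry2 had 4.81, 18.04 and 40.3 CPM in the GFP-positive libraries and 7.82, 16.7 and 33.995 CPM in the GFP-negative ones. The on/off gene ciarta had 0, 34.3 and 38.7 CPM in the GFP-positive libraries and 3.97, 35.0 and 59.8 CPM in the GFP-negative ones. Of the 23 clock genes at 10 CPM or more in a library of each group, 17 (73.9%) had the same replicate number highest in both groups and 15 (65.2%) also the same one lowest. Over all 5825 genes at that level the share was 41.3% for the highest and 21.5% for both. The clock list was added after the data were seen, so its shares are a description of that choice.

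**Figure D5:**
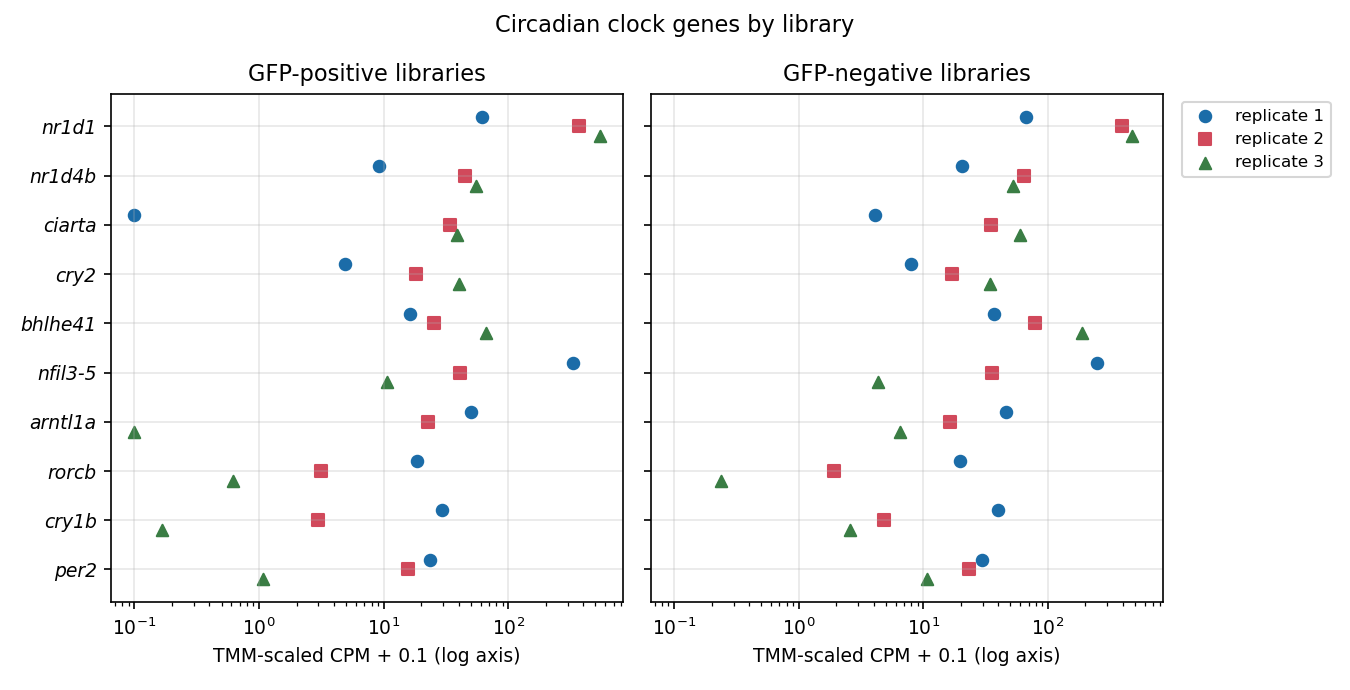
Levels of 10 circadian clock genes (TMM-scaled CPM plus 0.1, log axis) in the 3 GFP-positive libraries, left, and the 3 GFP-negative libraries, right, with 1 symbol per replicate number. In both groups replicate 1 is lowest for nr1d1, nr1d4b, ciarta, cry2 and bhlhe41 and highest for nfil3-5, arntl1a, rorcb, cry1b and per2. The 10 genes were picked from the list. Of 23 clock genes at 10 CPM or more in a library of each group, 15 had the same number highest and lowest. Others not drawn, such as per1b, tefa and cry4, had different numbers highest in the groups.

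Many of the immune and clock genes above were among the genes that spread widely in both groups. Counting genes with a 4-fold or larger ratio between replicates in both groups, with 1 count added to each, gave 68 genes. The same replicate number was highest in both groups for 62 of them (91.2%). These genes were chosen for their spread in both groups, and many of them were immune or clock genes. Of the 1030 genes with such a ratio among the GFP-positive libraries, whatever the GFP-negative ones did, 45.6% had the same number highest, near the 41.3% of all genes. Most genes that spread widely among the GFP-positive libraries did not share their highest replicate number with the GFP-negative ones. Genes highest in GFP-positive replicate 3 are given here. npr3, a clearance receptor for natriuretic peptides, had 30.9, 29.7 and 114 CPM in the GFP-positive libraries, against 6.76, 14.2 and 21.1 CPM in the GFP-negative ones. The lipid phosphatase ptenb had 38.2, 30.9 and 110 CPM in the GFP-positive libraries, against 32.7, 43.6 and 36.67 CPM in the GFP-negative ones. Replicate 3 was the highest GFP-positive library by far for both genes, and among the GFP-negative libraries npr3 was also highest in replicate 3 but ptenb in replicate 2.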

How the data were processed

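Each library has a deposited table of raw counts per gene from the authors, with gene symbols and Ensembl identifiers, per the file headers. Aligner, counter, genome build and strand setting: not given in the sources used here. Coordinates and sequences are therefore not printed, and genes with close copies or overlaps are uncertain. Per the labels' protocols, SMART-Seq v4 cDNA went into NEBNext Ultra II Directional libraries. Levels are counts per 1000000 counts scaled by TMM factors from edgeR 4.0.16 in R 4.3.3 over all 6 libraries and the 13490 genes that filterByExpr kept. Ranks, ratios and counts of genes were computed in Python 3.11.15, and DESeq2 1.42.0 size factors were used as an alternative scaling. Values per library were compared between groups with exact two-sided permutation tests and Benjamini-Hochberg adjustment over 3 tests and 0.05 as the threshold, so a p measures the spread of these libraries alone.

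Named genes were the 20 with the highest mean level outside mt- genes, the 12 steadiest at 100 CPM or more, up to 4 for each on/off pattern and 4 highest in each replicate, 2 members of each list, up to 2 on/off members of each list and a fixed set of heart genes. Other genes in the text, among them further list members, mt-co2 and the chemokines, were chosen after their values were seen. A gene that the rule names is not reported here. Of 498 entries in 25 lists, 481 matched, and 19 classes were taken by symbol. The members and lists were chosen with earlier results of these data known. The counting steps were tested on simulated data. Same replicate numbers may pair the samples, which the titles do not state. Deviations from the group means correlated at 0.210, 0.301 and 0.238 for same-numbered libraries of the 2 groups over 4969 genes. For the other pairs of libraries they correlated at -0.220 to -0.0817. The deviations of a gene cancel out within a group, so the negative values follow in part from the positive ones.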

Additional observations from a re-analysis of the deposited data

How the results depend on the processing

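The number of on/off genes follows its thresholds: it was 691 with CPM of the counts outside mt- genes, 929 with presence at 5 CPM and 50 at 20 CPM, and 717 when up to 3 counts were called absent, while the other 3 scalings gave 289 to 338. Leaving out 1 GFP-positive library in turn gave 73 to 169 on/off genes, 1896 to 2385 steady genes and a median ratio of 1.52 to 1.82 at 10 to 30 CPM, an alternative chosen after the data were seen. Of steady genes there were 1753 with a ratio of up to 1.5 and 327 with 1000 counts or more per library, and 618 to 742 over the scalings. No library lacked a gene with 50 CPM over the others, a difference of 0. With the replicate block the sign-flip test of same-numbered differences gave p = 0.25 for genes at equal depth (-1210.5), missing genes (30.0) and the top 100 share (-10.4), the smallest value that 3 pairs allow in this exact test. With 1 library left out, these differences ranged over -1522 to -890.4, 14.2 to 42.2 and -11.9 to -8.61, with permutation p of 0.1 to 0.2. Over 4 other scalings, 72 of 452 ratios and 127 of 592 mean levels of named genes moved by more than the spread allowed, and on leaving out a library 113 of 339 ratios and 0 of 444 mean levels did. Counts per length of transcript were not run, since no lengths were at hand. Depth limits the genes under about 0.2 CPM in each library.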

Other observations

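Beyond macrophage and clock genes, several genes were highest in the same replicate number of both groups. Their choice followed a look at the values. The water channel gene aqp8a.1 had 141, 20.4 and 19.5 CPM in GFP-positive replicates 1, 2 and 3, against 40.3, 7.52 and 6.46 CPM in GFP-negative replicates 1, 2 and 3. The urea transporter gene slc14a2 had 10.3, 8.57 and 0.130 CPM in the GFP-positive libraries and 16.2, 8.52 and 2.77 CPM in the GFP-negative ones. The metalloprotease gene adam19b had 30.6, 25.1 and 6.25 CPM in the GFP-positive libraries and 15.6, 6.82 and 3.18 CPM in the GFP-negative ones, and asb15b, an ankyrin repeat gene of muscle, had 19.4, 5.15 and 0 CPM in the GFP-positive libraries and 40.5, 18.4 and 2.81 CPM in the GFP-negative ones. Highest in replicate 3 of both groups were the kinase gene map3k15, with 5.35, 8.50 and 54.2 CPM in the GFP-positive and 11.7, 29.0 and 47.6 CPM in the GFP-negative libraries, and the guidance ligand gene sema3fb, with 4.34, 33.2 and 50.9 CPM in the GFP-positive and 4.24, 14.1 and 17.7 CPM in the GFP-negative libraries.

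Annexin and S100 genes, which bind calcium, were highest in GFP-positive replicate 2 for 11 of 13 members at 10 CPM or more, and for 10 to 12 members over the other scalings. Their summed level was 3165, 4240 and 2618 CPM in the GFP-positive libraries, against 1479, 1464 and 1324 CPM in the GFP-negative ones. Keratin genes were highest in replicate 2 for 6 of 8 members. Of all 7833 genes at that level, 2249 were highest in replicate 2. Macrophage, endocardial and valve marker sums were highest in the same library, the valve sum by little over replicate 3. The part of such cells in these values was not tested.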
